A study of Mus musculus with 6 samples.

Results

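Sub1, Copz2, Tubb5, Ccdc124, Bex3, Hsp90ab1 and Dynlrb1 are 7 of the 27179 genes in a count table of mouse bone marrow stroma. They were chosen from that table for high counts in every Input and anti-m6A library and 0 counts in both IgG libraries. The levels of the 7 in the 6 libraries are therefore a description of how they were chosen and carry no test. Their lowest Input or anti-m6A count was 2817 (Bex3, Input replicate 1), which is no bound that sets them apart. Igf1, Ndufb10, Ndufb11 and Eif5, which are not among the 7, also lay above it with 0 counts in both IgG libraries. The cells were sorted from bone marrow of C57BL/6 mice at postnatal day 2 that carried Cxcl12-dsred/+, a red fluorescent reporter at the gene for the niche chemokine Cxcl12, and cells with blood, erythroid or endothelial surface markers were left out. All groups share this genotype, strain and sort. Poly(A) RNA of these cells gave 3 groups of 2 libraries: Input (6% of the RNA, kept before the pull-down), RNA held by beads with IgG, and RNA held by beads with an antibody to m6A. The labels do not state how many animals were pooled or that libraries of a group came from separate pull-downs, so the spread between them may be technical.

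N6-methyladenosine (m6A) is an internal mark of mRNA that a nuclear methyltransferase complex writes, and it is known to concentrate near stop codons and in 3′ untranslated regions. In an m6A pull-down the antibody enriches marked RNA, and IgG beads show which RNA sticks to beads and antibody without recognition of the mark. The 7 genes belong to different machineries of the cell. Sub1 (also called PC4) is a single-stranded DNA-binding coactivator of RNA polymerase II, and Ccdc124 is a ribosome-binding protein. Copz2 is a zeta subunit of the COPI coat that carries cargo from the Golgi back to the endoplasmic reticulum. Tubb5 is a beta-tubulin, Dynlrb1 a roadblock light chain of the motor dynein, Hsp90ab1 the constitutive cytosolic HSP90 chaperone, and Bex3 a small X-linked adaptor of the p75 neurotrophin receptor.

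The sequence GGACT, read with U for T in RNA, is a form of the consensus in which m6A is written, so it was searched in 1 transcript of each gene (GENCODE M21 on GRCm38). Only the RNA strand can carry the mark, and its reverse complement AGTCC was counted as a comparison. Each transcript held GGACT, in 1 copy in 5 genes, 2 in Tubb5 and 3 in Sub1. The copy nearest to the stop codon is shown for each gene with up to 10 flanking bases, 5′ to 3′, with the motif in capitals, because its place in the transcript is what differs between them.
Sub1: tcagtgttcgGGACTtcaaaggaaa
Copz2: gtgaattttaGGACTgatgacagtg
Tubb5: ctgggactatGGACTccgttcgctc
Ccdc124: cacagatcgaGGACTcgctgcggag
Bex3: attgacaggaGGACTacgccgcaag
Hsp90ab1: cgtgcgagtcGGACTtggtccgggc
Dynlrb1: acaaaGGACTgtgcgcaggc

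The Copz2 copy lies in coding sequence 86 bases before the end of the stop codon and crosses from exon 7 to exon 8 of 9 (chr11:96856712-96856723 and chr11:96857553-96857565, plus strand). The Sub1 copy lies in coding exon 4 of 5, 157 bases before that end (chr15:11986521-11986545, minus strand), and its other copies lie in the 3′ untranslated region. The Tubb5 copy lies in coding exon 3 of 4 (chr17:35836207-35836231, minus strand), with the other copy in its left flank, and that of Ccdc124 in coding exon 3 of 5 (chr8:70868953-70868977, minus strand). Those of Bex3 (exon 2 of 3, chrX:136270846-136270870, plus strand), Hsp90ab1 (exon 1 of 11, chr17:45573209-45573233, minus strand) and Dynlrb1 (exon 1 of 4, chr2:155236535-155236554, plus strand) lie in the 5′ untranslated region. In the 300 bases centred on the end of the stop codon, 1 of the 7 transcripts, Copz2, held GGACT and 2 held AGTCC. The share with GGACT was 34.1% of 9372 tested genes with a full window, and 25.9% for AGTCC. Over whole transcripts 91.6% of tested genes held the motif. With 1 to 3 copies the 7 transcripts had a median of 0.89 copies per kilobase, beside 1.06 over all tested genes. A match says nothing of whether that adenosine was methylated, and the counts are summed per gene and locate no site.

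Total counts were 7125578 and 9493391 in Input, 2487148 and 1278735 in IgG, and 6102070 and 5133237 in anti-m6A. Genes detected were 10024 and 11186 in Input, 3266 and 2723 in IgG, and 12714 and 12391 in anti-m6A. Values below are CPM, counts set to a common library size with TMM scaling in edgeR. A count of 0 in a library is set beside the level that 3 counts stand for, 1.16 CPM in IgG replicate 1 and 1.94 in replicate 2, which covers counting error only. All 10 stromal markers listed, Cxcl12 and Lepr among them, were detected in every Input and anti-m6A library, and 6 of 10 in each IgG library. By share of counts they took 1.19% and 1.15% in Input, 0.447% and 0.501% in IgG and 0.411% and 0.412% in anti-m6A. Col1a1, which is among them, was higher in IgG than in Input. It had 6000 raw counts summed over both IgG libraries and a mean of 1062 CPM in Input. Cxcl12, Col1a2, Pdgfrb and Vcam1 were lower in IgG. Of the 11 blood markers counted, 7 were detected in each Input library, 6 in each IgG library and 4 in each anti-m6A library. Ptprc, Elane and Cd79a were at 0 throughout. The 6 endothelial markers together took at most 0.00988% of the counts of a library. The 10 hepatocyte markers took 2.09% and 2.20% of the counts in IgG, 0.173% and 0.330% in Input and 0.147% in each anti-m6A library. Trf, which is on that list, went the other way and was lower in IgG than in Input. It had a mean of 1298 CPM in Input. In IgG it had 1405 raw counts, not CPM, summed over both libraries with their totals of 2487148 and 1278735. The 12 blood markers, of which 11 are in the table, took 0.643% and 0.633% in IgG and 0.0623% to 0.0968% in the other libraries. The hepatocyte and blood shares move with the IgG group, in which the 7 transcripts are at 0, and their part in that was not tested. Input was kept before the pull-down and the other groups are RNA held by beads, so shares that differ between groups are no measure of cell numbers. Within Input, which is bulk RNA, fewer cells of a type and less RNA per cell cannot be told apart.

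Among the 2 nuclear and ribosomal factors, Sub1 (chr15:11981336-11996038) had 5554 and 10131 counts in Input and 12166 and 11159 in anti-m6A. Scaled to library size these were 657 and 983 CPM in Input, and 2523 and 2813 in anti-m6A. Sub1 had the highest anti-m6A level of the 7, and its Input libraries differed more from each other than its anti-m6A libraries. Ccdc124 (chr8:70868226-70873490) had 3839 and 4938 counts in Input and 8583 and 8403 in anti-m6A, or 454 and 479 CPM against 1780.2 and 2118. Relative to the mean, only Tubb5 of the 7 had a closer pair of Input levels.

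For the coat and cytoskeleton genes the picture was alike. Copz2 (chr11:96849876-96861203) had 6755 and 9379 counts in Input and 9583 and 8997 in anti-m6A, which overlap, and 799 and 909.8 CPM against 1988 and 2268, which do not. Tubb5 (chr17:35833920-35838301) had 7803 and 9810 counts in Input and 11242 and 6610 in anti-m6A. Its raw counts overlapped too, while its scaled levels of 923 and 952 CPM in Input and 2332 and 1666 in anti-m6A did not. Tubb5 had the widest anti-m6A pair of the 7, at 1999 ± 470.4 CPM (SD, n = 2). Dynlrb1 (chr2:155236533-155250277) had 4000 and 5816 counts in Input and 7410 and 6748 in anti-m6A, or 473 and 564 CPM against 1537 and 1701.

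Hsp90ab1 (chr17:45567778-45573261) had 5564 and 9966 counts in Input and 7320 and 6833 in anti-m6A. Its raw counts also overlapped, and its scaled levels of 658 and 967 CPM in Input and 1518 and 1723 in anti-m6A did not. Bex3 (chrX:136270253-136271978) had 2817 and 5557 counts in Input, the lowest of the 7 in the first library, and 7956 and 7387 in anti-m6A. This gave 333 and 539 CPM against 1650.1 and 1862.

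In IgG all 7 had 0 counts in both libraries, as did 73.4% of all genes tested. Of the genes at 256 to 1024 CPM in Input, 26.7% did. At its mean TMM-scaled Input level, Tubb5 would have counted 2425 reads in IgG replicate 1 and 1446 in replicate 2, and Bex3, the lowest in Input, 1128 and 673. Mean levels were at least 281-fold (Bex3) to at least 604-fold (Tubb5) higher in Input than the IgG floor of 3 counts per library. In anti-m6A they were at least 1043-fold (Dynlrb1) to at least 1719-fold (Sub1) higher than that floor.

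**Figure D1:**
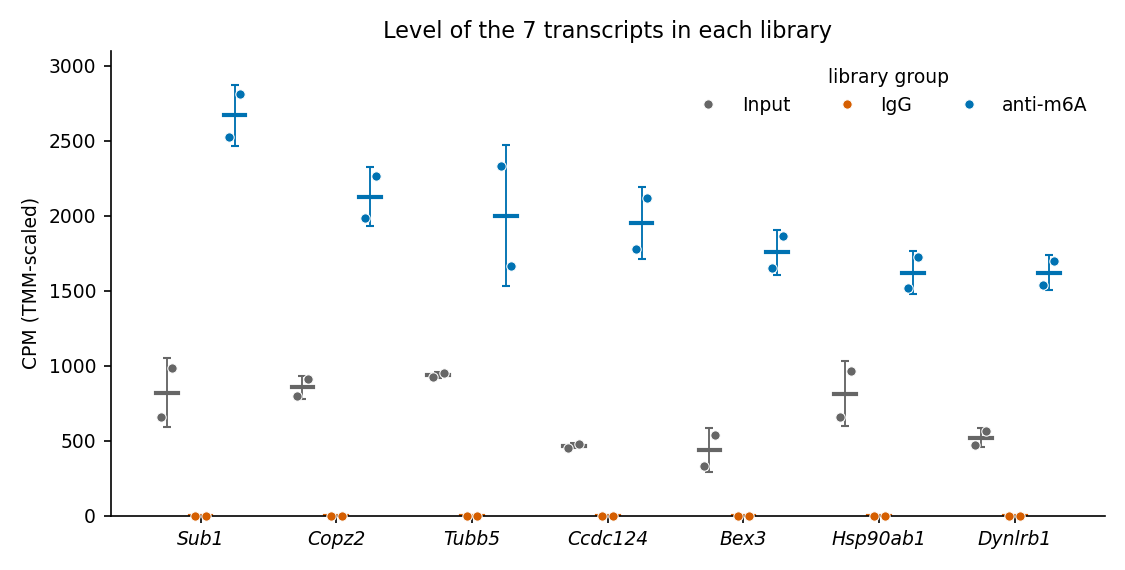
CPM (TMM-scaled, linear axis) of each transcript in the 2 Input, 2 IgG and 2 anti-m6A libraries; points are libraries, thick bars the mean and thin bars the SD. The IgG points are at 0 for all 7, and both anti-m6A points lie above both Input points for each gene, with the widest anti-m6A pair in Tubb5.

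Both anti-m6A libraries stood above both Input libraries for 7 of the 7 genes in CPM, and also with library totals or DESeq2's size factors as scaling. Of all 11281 genes tested, 44.3% had this order (36.1% with library totals and 37.5% with size factors), and since the genes were chosen for high anti-m6A levels nothing is read from it. The log2 difference of anti-m6A from Input was 2.06 ± 0.19 (SE, n = 2 per group) for Ccdc124 and 2.01 ± 0.31 for Bex3. It was 1.70 ± 0.26 for Sub1, 1.64 ± 0.20 for Dynlrb1 and 1.32 ± 0.18 for Copz2. Tubb5 and Hsp90ab1 had the smallest, at 1.09 ± 0.23 and 1.00 ± 0.26. On the TMM scale the levels of Ccdc124 and Bex3 were 4.18 and 4.03 times those in Input, and that of Hsp90ab1 1.99 times. With library totals the log2 differences were 1.52, 1.48 and 0.46. The median of the 7 was 1.64, beside 0.18 over all genes tested. It was 1.21 with DESeq2's size factors, which put the median of all genes at -0.22, and 1.10 with library totals, which put it at -0.32.

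Levels can be compared between the genes only per length of transcript. The transcripts ran from 684 bases (Dynlrb1) to 3372 (Sub1, of which 2879 are 3′ untranslated), with 930 in Copz2, 933 in Bex3, 1356 in Ccdc124, 2520 in Hsp90ab1 and 2649 in Tubb5. In Input, Copz2 was highest per kilobase at 919 ± 84.0 CPM (SD, n = 2), then Dynlrb1 at 758 ± 93.9 and Bex3 at 468 ± 156. The libraries of Copz2 and Dynlrb1 did not overlap, nor did those of Dynlrb1 and Bex3. Tubb5 (354 ± 7.54), Ccdc124 (344 ± 12.9), Hsp90ab1 (322 ± 86.5) and Sub1 (243 ± 68.3) followed. In this lower part the libraries of Bex3 and Tubb5, of Tubb5 and Ccdc124, of Ccdc124 and Hsp90ab1, and of Hsp90ab1 and Sub1 overlapped.

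In anti-m6A the order per kilobase changed at the top and the bottom. Dynlrb1 (2367 ± 170 CPM per kilobase) and Copz2 (2288 ± 213) led with overlapping libraries, and Bex3 (1882 ± 161) and Ccdc124 (1438 ± 176) each stood apart from their neighbours. Sub1 (791 ± 60.8), Tubb5 (755 ± 178) and Hsp90ab1 (643 ± 57.3) came last, with Tubb5 overlapping both others. Sub1, first of the 7 in anti-m6A counts, was thus below Dynlrb1, Copz2, Bex3 and Ccdc124 per length.

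Reads of a gene with near-identical copies can be lost or misplaced in counting, so stretches of 50 bases were looked up in the transcripts of all other genes. Copz2, Ccdc124 and Dynlrb1 shared none. Tubb5 shared 0.115% of its stretches and Sub1 0.301%, the latter with the annotated genes Gm2986 and Gm4057. Hsp90ab1 shared 4.49%, spread over genes such as Gm6368, Gm13498 and Gm7198. Bex3 shared 13.9%, with its neighbour Bex2. Bex2 had 14 and 36 counts in Input, 0 and 0 in IgG and 93 and 82 in anti-m6A, so it was far below Bex3 in Input and anti-m6A.

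The pattern that chose the 7 was found in other genes too. Of 828 genes with at least 1000 counts in each Input and anti-m6A library, 219 (26.4%) had 0 counts in both IgG libraries, and the 7 are among them. They rank 1, 2, 3, 4, 6, 8 and 9 of those 219 by anti-m6A level. Ndufb10 (rank 5), Igf1 (rank 7) and Ndufb11 (rank 10) fill the gaps, so the 7 are the upper end of a longer series. By Input level they rank from 1 (Tubb5) to 37 (Bex3) of the 219. Just inside the bound were Rit1, Ncl and Pdlim7, with 1001, 1003 and 1006 counts in their lowest library. Just outside it were Lage3, Trip6 and Naca, with 999, 990 and 982. On the IgG side 14 of the 828 genes had exactly 1 IgG count over both libraries, among them Timm17a, Tle2 and Vti1b.

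Most other genes of this abundance were well above 0 in IgG. Of those 828 genes, 433 had more than 1000 IgG counts over both libraries, 112 had more than 100 and up to 1000, 33 had 11 to 100 and 31 had 1 to 10. Most were found or missing in both IgG libraries: 584 genes were found in both, 22 were at 0 in replicate 2 alone and 3 in replicate 1 alone. The latter counts take no account of the lower depth of replicate 2.

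The share of genes at 0 in IgG was lower at higher Input levels. It was 83.2% of 1056 genes at 1 to 4 CPM in Input, 79.5% of 3497 at 16 to 64 CPM and 63.3% of 2601 at 64 to 256 CPM. At 256 to 1024 CPM, where all 7 transcripts lie, it was 26.7% (179 of 671 genes, Wilson 95% interval 23.5 to 30.1). That interval treats genes as independent and does not measure the spread between IgG libraries. The other 492 genes at 256 to 1024 CPM had a median IgG level of 468 CPM (quartiles 142 and 877). Mean Input levels of the 7 were 436 to 938 CPM. At 1024 CPM or more, all 68 genes had IgG counts.

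**Figure D2:**
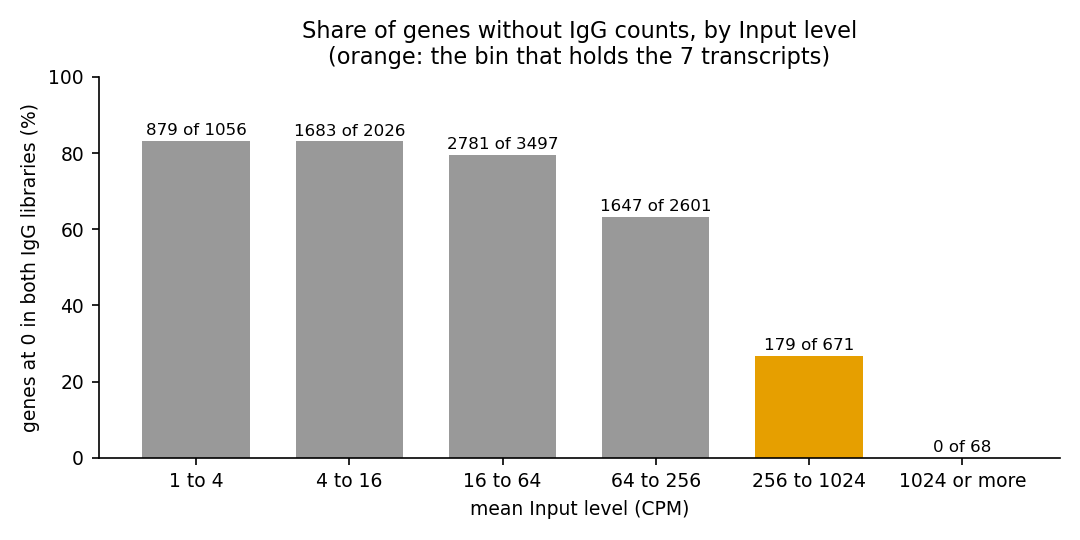
Percent of genes with 0 counts in both IgG libraries (vertical axis) in bins of mean Input CPM (horizontal axis), with the number of genes over each bar. The orange bin of 256 to 1024 CPM holds all 7 transcripts and 179 of its 671 genes are at 0, against 1647 of 2601 in the bin below and 0 of 68 in the bin above.

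Transcript features that the rule did not use were set side by side for abundant genes with and without IgG counts. Transcripts of the 219 genes had a median length of 1321 bases and those of the 609 genes with IgG counts 1378, both shorter than the 2878.5 of all tested genes. The median G and C content was 52.4% and 52.5%. A GGACT in the stop codon window was found in 36.3% of the former and 31.1% of the latter, and AGTCC in 31.9% and 23.5%. By length of transcript, the share at 0 in IgG was 23.3% of 245 genes under 1000 bases, 30.2% of 295 from 1000 to 2000, 23.4% of 111 from 2000 to 3000, 23.5% of 68 from 3000 to 4000 and 38.6% of 70 longer genes, with no steady order. The log2 difference of anti-m6A from Input, in contrast, is drawn from counts that the rule used. A bound of 1000 counts stands for a higher CPM in the anti-m6A libraries, which were smaller than those of Input. The median log2 difference was 0.97 in the 219 and 1.03 in the 609. The 7, chosen with anti-m6A levels in view, had 1.64. These are descriptions with no test.

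**Figure D3:**
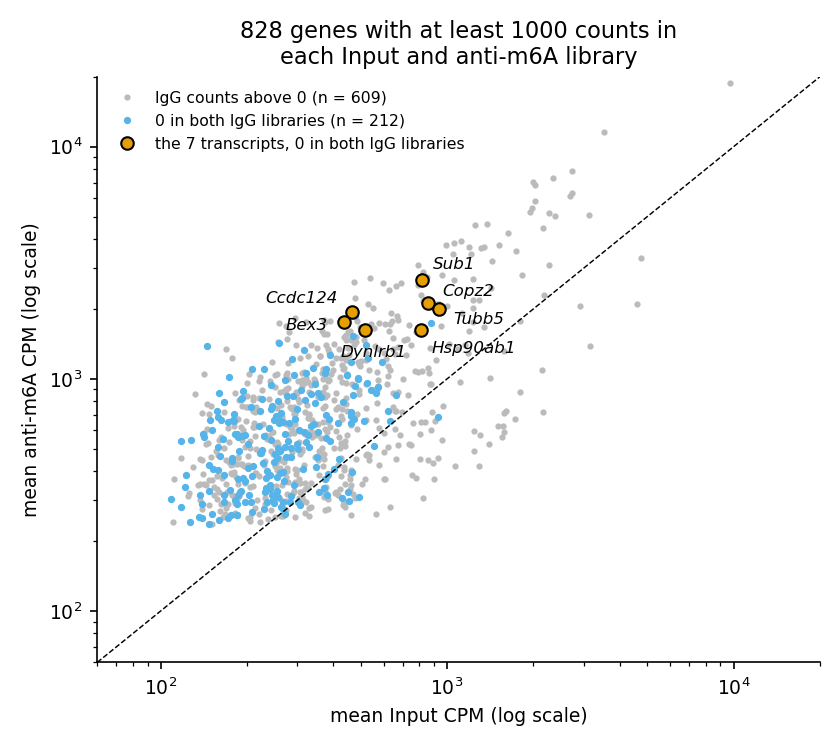
Mean anti-m6A CPM against mean Input CPM (both log scales, dashed line at equal levels) of 828 genes that have 1000 counts or more in all Input and anti-m6A libraries. Genes at 0 in both IgG libraries (212 blue points and the 7 orange, named ones) are mixed among the 609 with IgG counts (grey) at lower Input levels and absent at the highest, and the 7 lie above the line at the top of the blue points.

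By distance of log2(CPM + 1) over the 6 libraries, the genes most like the mean of the 7 were Igf1 (0.65), Ndufb10 (0.74), Ndufb11 (0.87), Rbm8a (1.04) and Eif5 (1.12). Igf1 encodes insulin-like growth factor 1, Ndufb10 and Ndufb11 are subunits of respiratory complex I, Rbm8a is a core protein of the exon junction complex and Eif5 a translation initiation factor. Ccdc124 and Ndufb10 were closest of any member and other gene (0.19), and Igf1 was the nearest other gene to Sub1, Copz2, Tubb5 and Hsp90ab1. Ndufb11 was the nearest to Bex3 and Dynlrb1. Rbm8a had 1 and 0 counts in IgG, so it would be left out by a rule that asks for 0.

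The families and partners of the 7 genes were looked at next, since the rule did not choose them. Of 132 genes in 7 lists, 117 passed the filter on low counts. With edgeR (quasi-likelihood, adjusted p under 0.05), anti-m6A exceeded IgG for 82 of the 117 and was below it for 10. That is 70.1% and 8.55%, beside 73.1% and 8.31% of all 11281 genes tested (81.4% in either direction). In IgG against Input 12 were higher and 80 lower, 10.3% and 68.4%, beside 9.89% and 61.5% of all genes (71.4% in either direction). Of the 117, 80 had 0 counts in both IgG libraries, and of all tested genes 8280 (73.4%). The share of calls in the lists was thus near that of all genes, and absence from IgG was common among the relatives as it was in the table. In anti-m6A against Input 22 were higher and 25 lower, 18.8% and 21.4%, beside 28.0% and 20.5% of all genes (48.4% in either direction), with a median log2 change of -0.06 beside 0.18. Of the 22, 7 had under 10 counts in each Input and IgG library and passed the filter only through anti-m6A, and 5 of the 25 likewise only through Input. The split of the relatives was 18 higher and 34 lower with DESeq2's size factors and 16 and 35 with library totals. With DESeq2's size factors 47.6% of all calls in that comparison were higher, and 57.8% in the fit with TMM. Without anti-m6A replicate 1 only 2 of the relatives were called against Input, and without replicate 2 only 5. Without Input replicate 1 there were 75 and without Input replicate 2 there were 85, so single calls against Input rest on which libraries enter.

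The partners of Sub1, general transcription factors of RNA polymerase II, gave 13 genes higher and 1 lower than IgG of 22 tested. These are 59.1% and 4.55%, beside 73.1% and 8.31% of all genes tested. Against Input 2 were higher and 4 lower (9.09% and 18.2%, beside 28.0% and 20.5%). Taf7, a TFIID subunit, had 409 and 249 counts in Input and 1097 and 987 in anti-m6A, with 0 in IgG. It rose by a log2 change of 2.71 ± 0.45 against Input (SE, n = 2 per group, edgeR adjusted p = 0.0122). Gtf2h2, a TFIIH subunit, had 521 and 1177 counts in Input but 18 and 11 in anti-m6A, a log2 change of -4.74 ± 0.55 (edgeR adjusted p = 0.00716). Taf9 was the gene lower than IgG, with 1606 and 930 counts there, a log2 change of anti-m6A against IgG of -1.63 ± 0.31 (edgeR adjusted p = 0.00511).

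The list of ribosome factors set beside Ccdc124 had 13 genes tested. Of these 10 were higher than IgG and 3 lower (76.9% and 23.1%, beside 73.1% and 8.31% of all genes). The lower ones were Serbp1, which occupies the mRNA channel of idle ribosomes, Eif5a, the hypusinated elongation factor, and Rack1, a ribosomal scaffold. Rack1 had 3756 and 2075 counts in IgG, or 1399 ± 75.9 CPM (SD, n = 2) against 576 ± 19.5 in anti-m6A and 807 ± 108 in Input. Its Input level was near that of Hsp90ab1 and Sub1, which were at 0 in IgG. Against Input 2 of the 13 were higher and 3 lower (15.4% and 23.1%, beside 28.0% and 20.5% of all genes). Denr, which helps to recycle ribosomal subunits, was at 0 in IgG and rose by 1.18 ± 0.25 on the log2 scale against Input (SE, edgeR adjusted p = 0.0221), a call lost with DESeq2's size factors (0.0529) and library totals (0.0745). Ifrd2, a protein of silent ribosomes, fell by 2.51 on that scale (± 0.52 SE, adjusted p = 0.0212) with 7 and 6 counts in anti-m6A. It passed the filter on low counts only through Input.

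COPI subunits and the Arf machinery gave 14 of 19 higher and 1 lower than IgG. These are 73.7% and 5.26%, beside 73.1% and 8.31% of all genes tested. Against Input 3 were higher and 8 lower (15.8% and 42.1%, beside 28.0% and 20.5%). The median log2 change against Input was -0.60, beside 0.18 over all genes tested. Copz1, the other zeta subunit, had 0 and 823 counts in Input, 333 and 246 in anti-m6A and none in IgG. It missed the threshold against Input (edgeR adjusted p = 0.823), with a log2 change of 0.71 ± 2.23 SE. Arf4, a small GTPase of the Golgi, was lower than IgG by a log2 change of -2.12 ± 0.59 (edgeR adjusted p = 0.0192), on 4 and 5 counts in anti-m6A beside 9 in each IgG library. It was also lower than Input (-3.34 ± 0.58, adjusted p = 0.00901), and it passed the filter on low counts only through Input. Arfgap3, a GTPase-activating protein of Arf1, rose from 3 and 7 counts in Input to 194 and 177 in anti-m6A (log2 change 6.28 ± 0.62, adjusted p = 0.00716), and it passed the filter on low counts only through anti-m6A.

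Tubulins and their folding cofactors gave 12 of 16 higher than IgG, and 7 higher and 1 lower than Input. Of those 7, Tuba4a, Tubg2, Tube1 and Tbcd had 0 or 1 counts in each Input library and passed the filter only through anti-m6A. Tubb6, the other abundant beta-tubulin, had 2249 and 3222 counts in Input, 897 and 634 in anti-m6A and 0 in IgG. Its log2 change against Input was -0.74 ± 0.25 (SE, edgeR adjusted p = 0.0705), and it was called lower with DESeq2's size factors (-1.18, adjusted p = 0.0159) and with library totals (-1.28, 0.0141). Tubb2a, with 3 and 376 counts, and Tubb4b, with 130 and 1453, differed widely between the Input libraries and were not called (edgeR adjusted p = 0.800 and 0.583). Tubb2b had 0 counts in Input and IgG and 5 and 13 in anti-m6A. Tbce, a tubulin-folding cofactor, had 17 and 138 counts in Input and 411 and 426 in anti-m6A (log2 change 3.64 ± 1.02, adjusted p = 0.0462), a call lost with library totals (0.0557). Tubd1, delta-tubulin, went from 250 and 173 to 7 and 8 (-3.73 ± 0.59, adjusted p = 0.0110), and it passed the filter only through Input.

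In the dynein and dynactin list 17 of 24 genes were higher and 2 lower than IgG. These are 70.8% and 8.33%, beside 73.1% and 8.31% of all genes tested. Against Input 3 were higher and 4 lower (12.5% and 16.7%, beside 28.0% and 20.5%). Both LC8 light chains were called higher than Input, as counted in those 3. Dynll1 had 2273 and 3845 counts in Input, 72 and 26 in IgG and 8035 and 7374 in anti-m6A, a log2 change of 2.46 ± 0.31 against Input (SE, edgeR adjusted p = 0.00716) and 6.29 ± 0.38 against IgG (0.000548). Dynll2 had 229 and 543 counts in Input, 0 in IgG and 1705 and 1555 in anti-m6A (3.22 ± 0.44 against Input, adjusted p = 0.00786). The second roadblock chain, Dynlrb2, was at 0 in all 6 libraries. Of the dynactin subunits, the actin-related proteins Actr10 (1688 and 973 IgG counts) and Actr1b (630 and 303) lay below their IgG level in anti-m6A, by log2 changes of -3.72 ± 0.24 and -2.14 ± 0.36 (edgeR adjusted p = 0.000552 and 0.00345). Ndel1, a dynein regulator, was lower than Input (-2.46 ± 0.30, adjusted p = 0.00716).

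The HSP90 list, of 18 genes tested, had 12 higher and 3 lower than IgG. These are 66.7% and 16.7%, beside 73.1% and 8.31% of all genes tested. Against Input 3 were higher and 4 lower (16.7% and 22.2%, beside 28.0% and 20.5%). The HSP90 chaperones themselves parted in IgG. Hsp90aa1, the inducible cytosolic form, had 747 and 1369 counts in Input, 1 and 0 in IgG and 1406 and 1397 in anti-m6A. Its log2 change against Input was 1.54 ± 0.39 (SE, edgeR adjusted p = 0.0255; 0.0606 with library totals). Hsp90b1, the form of the endoplasmic reticulum, reached 2458 ± 71.1 CPM (SD, n = 2) in IgG, above its 888 ± 28.0 in Input and 722 ± 4.80 in anti-m6A. Its Input level thus lay near the 813 ± 218 CPM of Hsp90ab1, which had no IgG count. Hsp90b1 fell by 1.77 on the log2 scale in anti-m6A against IgG (± 0.14 SE, edgeR adjusted p = 0.000601).

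The co-chaperones were as mixed. Ahsa1, which activates the HSP90 ATPase, had 1971 and 1201 counts in IgG, above its anti-m6A level (-2.03 ± 0.28, adjusted p = 0.00199), which in turn exceeded Input (1.33 ± 0.28, 0.0145). Ptges3 (p23) was lower than IgG (-2.36 ± 0.43, 0.00443) on 10 and 7 IgG counts. Against Input, Fkbp5 fell (-4.17 ± 0.43, edgeR adjusted p = 0.00716) and Sugt1 rose (1.56 ± 0.37, 0.0304), with 0 IgG counts in both. The call of Sugt1 was lost with DESeq2's size factors (adjusted p = 0.0820) and library totals (0.104).

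The BEX and TCEAL family, small X-linked proteins, had 5 of 11 listed genes at 0 counts in all libraries, Bex1 and Bex4 among them, as was Ngfr, the p75 receptor, which is on the same list. Of the 5 genes tested, 4 were higher than IgG (80.0%, beside 73.1% of all genes tested). Against Input 2 were higher and 1 lower (40.0% and 20.0%, beside 28.0% and 20.5%). Bex2 rose by 2.94 ± 0.58 against Input (SE, edgeR adjusted p = 0.0189) and Tceal1 fell (-2.01 ± 0.53, adjusted p = 0.0402). Bex2 shares stretches with Bex3, so its reads are uncertain.

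**Figure D4:**
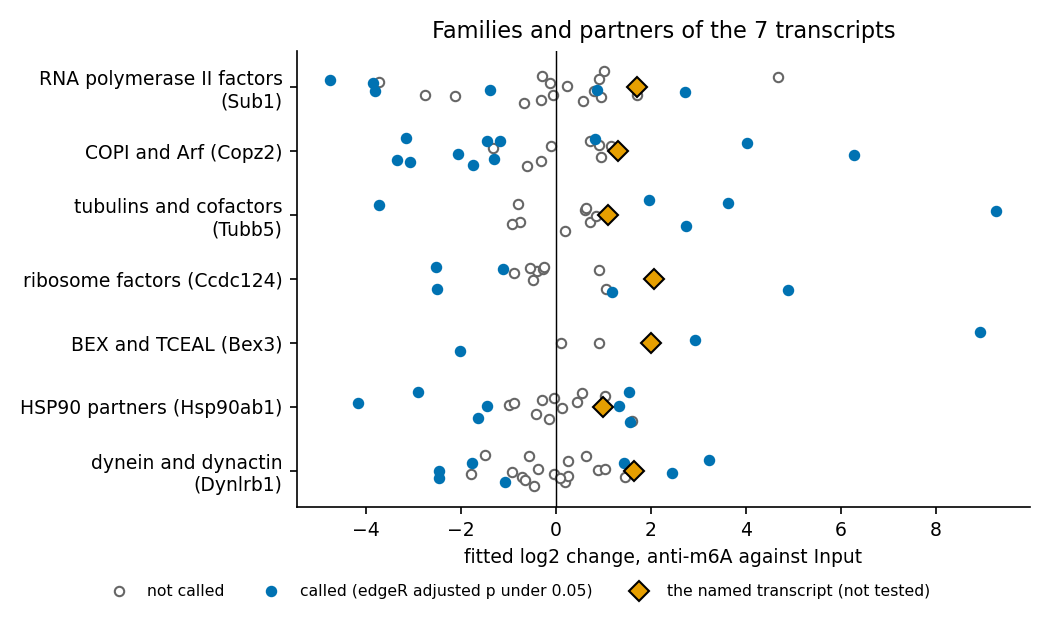
Fitted log2 change of anti-m6A against Input (horizontal axis) for 114 relatives in 7 lists, 1 line each, with called genes filled and others open, and the transcript each list belongs to as an orange diamond. Tested relatives at 0 in both Input libraries (3 genes) are left out, and most lists spread on both sides of 0. The 7 diamonds lie between 1.00 and 2.06. Those genes were chosen for high anti-m6A counts, so nothing is read from their place beside the relatives.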

How the data were processed

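Raw counts per Entrez gene number were deposited by the authors in 1 table, with 6 columns matched to samples by title. Picard, featureCounts, edgeR 3.38.1 and mm10 are named per the submitters' processing notes, without role or order; which aligner and annotation served is not given in the sources used here. Libraries were made by Smart-seq2 per the labels' protocols, which marks neither strand nor molecules. Symbols came from RefSeq GRCm38.p6 (25275 of 27179 numbers matched), which also gave gene coordinates.

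Counts were analysed with edgeR 4.0.16 in R 4.3.3: filterByExpr (minimum count 10, total 15) kept 11281 genes, the 7 chosen ones included; TMM scaling; 1 quasi-likelihood fit of 3 group means (3 residual degrees of freedom); Benjamini-Hochberg adjustment over all genes tested, threshold 0.05. SE is the log2 change over the root of F. The fit was tested on simulated data, but no outcome is given here, so nothing is read from that test about the calls. DESeq2 1.42.0 was an alternative. One coding transcript per gene was taken by APPRIS rank, then length.

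The members and lists were chosen with earlier results of these data known. Named relatives are the closest paralogs, in each list the called genes with the largest and smallest change against Input (with counts in each Input and anti-m6A library), and those lower than IgG where 4 or fewer; other named genes are the 5 of most like profile, the nearest of each member, and the 3 nearest the rule's bound on each side.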

Additional observations from a re-analysis of the deposited data

How the results depend on the processing

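Calls against Input depended most on single libraries. With at least 10 counts in each library, which removes genes at 0 in IgG and leaves 1757 genes and 23 relatives to test in place of 11281 and 117, 1179 genes and 17 relatives were called in anti-m6A against IgG (9187 and 92 in the reported fit), 928 and 12 against Input (5464 and 47), and 1051 and 12 in IgG against Input (8057 and 92). With the replicate number as a block, 3364 genes and 31 relatives were called against Input; the block moved no other count by over 1.5 times. Deviations of same-numbered libraries correlated at 0.05 (Input and IgG), 0.10 (Input and anti-m6A) and 0.13 (IgG and anti-m6A) over the 11281 genes. Of these genes 8280 were at 0 in both IgG libraries and have no IgG deviation. Such weak correlations cannot show whether libraries of the same number came from the same material. Leaving out 1 library gave 442 to 8691 genes and 2 to 85 relatives against Input, 7239 to 10265 and 83 to 105 against IgG, 7217 to 9188 and 83 to 100 in IgG against Input, where a lone library is taken to vary like the other groups. The median of the 7 was 1.21 with DESeq2's size factors, 1.10 with library totals and 1.46 to 1.77 without 1 library. At least 500 counts in place of 1000 gave 563 genes at 0 in IgG, 2000 gave 66, and leaving out 1 library 219 to 298; all 7 stayed at each bound. The share at 0 in IgG at 256 to 1024 CPM was 26.7% to 29.7% without 1 library. For 41 values of named relatives, 371 of 469 alternatives kept direction and call, 57 lost the call, 33 gained one, and 8 turned. Without Input replicate 1, Copz1 was -0.27 and Tubb2a -0.32 against Input, neither called; without Input replicate 2, which leaves 0 and 3 Input counts, both were called, at 11.13 and 6.22, the former set by the prior count and no bound. Taf9 against Input, 0.24 and uncalled, was -0.18 with DESeq2's size factors and -0.18 by DESeq2, -0.29 with library totals, -0.32 with at least 10 counts in each library and -0.088 without Input replicate 1, uncalled in each, and 0.70 and called without Input replicate 2. Tubb4b against Input was 1.54 without Input replicate 2 (edgeR adjusted p = 0.00431), -1.63 without Input replicate 1 (adjusted p = 0.00298) and -0.80 with both.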
